A study of Mus musculus with 8 samples.

Results

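The AP-1 and EGR immediate early factors considered here were the Fos family (Fos, Fosb, Fosl1, Fosl2), the Jun family (Jun, Junb, Jund), the zinc finger factors Egr1 and Egr2, and Ier2. Members were all array probes whose symbol in the probe annotation was one of these 10 names. The rule used no measured value, but the names were chosen with earlier results of these data known. Of the 10 genes, 9 had 1 probe each among the 18138 probes of the array, and the annotation listed none for Fosl2. The probe of Ier2 was not above background on any array, so that 8 member probes were tested, among 10244 probes in all.

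C2C12 is an established mouse myoblast line that leaves the muscle lineage for the osteoblast lineage when it is exposed to bone morphogenetic protein 2 (BMP-2). Dynasore is a small molecule that inhibits the GTPase dynamin, which pinches endocytic vesicles off the plasma membrane. The experiment asked how BMP-2 changes transcription when dynamin-dependent endocytosis is blocked, and it held 4 groups of 2 Illumina BeadChip arrays each, which the methods describe as biological duplicates. Dynasore+BMP-2 cells had 40 µM dynasore and 30 nM BMP-2, DMSO+BMP-2 cells had the 0.05% DMSO vehicle and 30 nM BMP-2, Dynasore cells had 40 µM dynasore with no BMP-2, and DMSO cells had the vehicle with no BMP-2. All 4 groups were starved of serum for 4 h, with dynasore or vehicle present for the final 2 h, and were then kept for 6 h with or without BMP-2 in the same compound, still in serum-free medium. The DMSO cells were therefore starved, vehicle-treated cells of this 1 line, and no unstarved cells or earlier time was measured.

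Fos proteins cannot pair with one another and dimerize with Jun proteins through a leucine zipper, whereas Jun proteins can also pair among themselves, and these dimers form the transcription factor AP-1. EGR factors bind GC-rich sites as monomers through zinc fingers. Many of these genes belong to the immediate early class, which growth factors, serum and stress switch on without prior protein synthesis, through serum response factor (SRF) and its ternary complex partners at CArG boxes and through CREB and ATF proteins at cyclic AMP response elements. In myoblasts Fos and Jun are known to counteract MyoD, and in the osteoblast lineage AP-1 proteins are known regulators of differentiation.

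Fos and Jun were higher and Egr2 was lower in both groups with dynasore than in DMSO. The 120 bases before the annotated start of these genes are shown, as they hold elements through which such stimuli are known to act. They are from RefSeq on GRCm38.p6 and run 5′ to 3′ on the gene's strand, at chr12:85473770-85473889 (plus strand) for Fos, chr4:95052223-95052342 (minus strand) for Jun and chr10:67537749-67537868 (plus strand) for Egr2, and capitals mark the matches.
Fos: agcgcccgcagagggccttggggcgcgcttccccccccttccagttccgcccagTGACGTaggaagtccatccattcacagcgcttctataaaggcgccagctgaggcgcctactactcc
Jun: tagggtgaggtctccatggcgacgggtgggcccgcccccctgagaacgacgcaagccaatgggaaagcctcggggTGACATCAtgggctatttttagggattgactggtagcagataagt
Egr2: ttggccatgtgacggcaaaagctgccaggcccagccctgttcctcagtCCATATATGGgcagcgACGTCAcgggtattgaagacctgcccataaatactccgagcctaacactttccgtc
The marked run in Fos is the core TGACGT of a cyclic AMP response element, 66 to 61 bases before the start, and that core was present on either strand in 4.55% of the 32851 stretches of the same length. The marked run in Jun is TGACATCA, a variant AP-1 and ATF site 45 to 38 bases before the start, which 2.1% of the stretches held. The Egr2 stretch held a CArG box 72 to 63 bases and the TGACGT core, on the other strand, 56 to 51 bases before the start, and 0.749% of the stretches held a CArG box. Egr2 has 5 annotated starts, and the first that holds both elements is shown. The AP-1 site TGANTCA (3.41% of stretches) was in no stretch of a member, and the EGR site GCGNGGGCG (3.36%) was in those of Fosb and Fosl2. The stretches of Junb and Jund held none of these 5 motifs, and Fosl1, Egr1 and Ier2 were not analysed. The motifs were searched on both strands, and in the stretches shown their matches do not overlap. A match describes letters only and is not evidence of a bound site.

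The 2 DMSO+BMP-2 arrays stood apart from each other. Over the tested probes the duplicates correlated at 0.777 in DMSO+BMP-2, against 0.979, 0.995 and 0.994 in Dynasore+BMP-2, Dynasore and DMSO, and 4385 probes differed by more than 1 on the log2 scale between the DMSO+BMP-2 duplicates, against 335, 11 and 13. Replicate 2 of DMSO+BMP-2 had a background mode of 242 intensity units and 7429 probes above background, whereas the other 7 arrays had modes of -1.22 to 45.3 and 8875 to 9470 such probes. The methods leave 1 DMSO+BMP-2 replicate out of the significance test and do not say which. Here, comparisons without DMSO+BMP-2 were fitted on 7 arrays, with replicate 1 of that group left out. The lone array then added nothing to the estimate of the spread. Comparisons with DMSO+BMP-2 were fitted on all 8 arrays and are given with each of its arrays alone. Of the myoblast markers, Des and Tnnt1 were above background on 8 arrays, Myod1 on 7 and Myog on 6, whereas Myf5 and Pax7 were on 0. The probes for endothelial, leukocyte and adipocyte markers were at background on all 8 arrays, while Krt8 (epithelial) was above it on 7 and Syp (neural) on 6. In RNA from whole cultures, fewer cells of a type and less RNA per cell cannot be told apart.

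Against DMSO, both groups with dynasore, with and without BMP-2, had higher Fos, Jun and Junb and lower Egr1 and Egr2. At equal BMP-2, in Dynasore+BMP-2 against DMSO+BMP-2, no member was called on all 8 arrays, as described below. In Dynasore+BMP-2 against DMSO, 3 of 8 tested members were higher (Fos, Jun and Junb) and 3 were lower (Jund, Egr1 and Egr2) at an adjusted p under 0.05 in limma, where 19.5% of all tested probes were called higher and 18.9% lower. In Dynasore against DMSO, 3 members were higher (Fos, Jun and Junb) and 2 were lower (Egr1 and Egr2), where 17.9% of all probes were called higher and 19.5% lower. Both comparisons use the same 2 DMSO arrays. So many probes moved in each that the number of members called is to be read against that background. The median log2 change of the 8 members was -0.07 in Dynasore+BMP-2 and 0.29 in Dynasore against DMSO, and that of all tested probes was 0 in both.

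**Figure D1:**
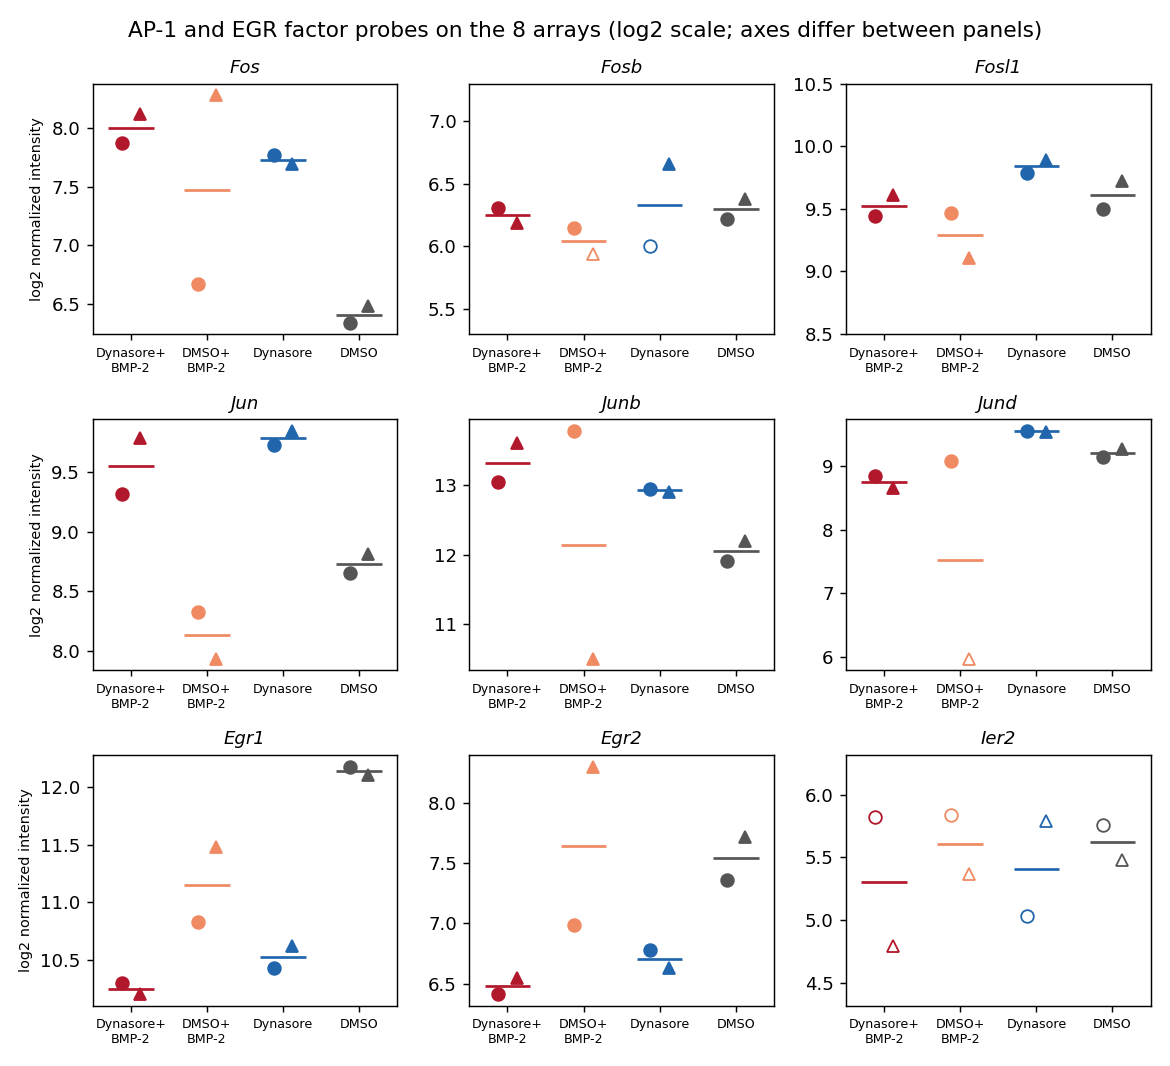
Log2 normalized intensity of the 9 member probes on the 8 arrays. Circles are replicate 1, triangles replicate 2, open symbols are not above background and bars are group means. Fos, Jun and Junb lie higher and Egr1 and Egr2 lower on all 4 dynasore arrays than on the DMSO arrays, and the DMSO+BMP-2 duplicates lie far apart for Junb and Jund.

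Fos, the founding partner of Jun in AP-1 and a standard mark of recent stimulation, had log2 intensities of 7.87 and 8.12 in Dynasore+BMP-2, 6.67 and 8.28 in DMSO+BMP-2, 7.77 and 7.69 in Dynasore and 6.34 and 6.48 in DMSO. All 4 arrays with dynasore lay above both DMSO arrays, and of the DMSO+BMP-2 arrays 1 lay between the DMSO and the dynasore arrays, nearer to DMSO, and 1 above every other array. The log2 change was 1.58 ± 0.16 (SE) in Dynasore+BMP-2 against DMSO, a 3-fold rise (limma on 7 arrays, adjusted p = 2.8e-05). In Dynasore against DMSO it was 1.32 ± 0.16, or 2.5-fold (adjusted p = 1e-04).

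The other Fos family members did not share this change. Fosb, a close relative of Fos that is likewise inducible, was near background, with log2 intensities of 6.31 and 6.19 in Dynasore+BMP-2, 6.15 and 5.94 in DMSO+BMP-2, 6.00 and 6.66 in Dynasore and 6.22 and 6.38 in DMSO. It was above background on 6 of the 8 arrays. Both groups with dynasore overlapped DMSO, while the DMSO+BMP-2 arrays lay below the Dynasore+BMP-2 and DMSO arrays. Its log2 change was -0.05 ± 0.23 in Dynasore+BMP-2 (adjusted p = 0.88) and 0.03 ± 0.23 in Dynasore (adjusted p = 0.94), each against DMSO. Fosl1, or Fra-1, which lacks the transactivation domain of Fos and is itself known to be switched on by AP-1, had 9.44 and 9.61 in Dynasore+BMP-2, 9.47 and 9.11 in DMSO+BMP-2, 9.79 and 9.89 in Dynasore and 9.50 and 9.72 in DMSO. The Dynasore arrays lay just above the DMSO arrays, while the Dynasore+BMP-2 arrays overlapped them. The log2 change of Fosl1 was -0.08 ± 0.13 in Dynasore+BMP-2 (adjusted p = 0.69) and 0.23 ± 0.13 in Dynasore (adjusted p = 0.21) against DMSO.

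Jun, the subunit that can form AP-1 alone or with a Fos protein, had 9.31 and 9.78 in Dynasore+BMP-2, 8.33 and 7.94 in DMSO+BMP-2, 9.72 and 9.84 in Dynasore and 8.65 and 8.81 in DMSO. The 4 arrays with dynasore were the highest and the 2 DMSO+BMP-2 arrays the lowest, without overlap with DMSO on either side. The log2 change against DMSO was 0.81 ± 0.17 in Dynasore+BMP-2, 1.76-fold (adjusted p = 0.0028), and 1.05 ± 0.17 in Dynasore, 2.07-fold (adjusted p = 0.00056).

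Junb, a weaker activator than Jun and known as a BMP and TGF-beta responsive gene, had 13.04 and 13.61 in Dynasore+BMP-2, 13.78 and 10.51 in DMSO+BMP-2, 12.95 and 12.90 in Dynasore and 11.91 and 12.20 in DMSO. All arrays with dynasore exceeded both DMSO arrays, and the DMSO+BMP-2 duplicates were the highest and the lowest of the 8. The log2 change against DMSO was 1.27 ± 0.18 in Dynasore+BMP-2, 2.42-fold (adjusted p = 0.0011), and 0.87 ± 0.18 in Dynasore, 1.83-fold (adjusted p = 0.0077). In Dynasore against DMSO the call of Junb was lost without Dynasore replicate 1 (adjusted p = 0.066), Dynasore replicate 2 (0.056) or DMSO replicate 1 (0.065), with log2 changes between 0.72 and 0.9.

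Jund, a Jun protein that is present in resting cells and is known to restrain growth, followed neither of the other Jun genes. It had 8.85 and 8.66 in Dynasore+BMP-2, 9.08 and 5.97 in DMSO+BMP-2, 9.56 and 9.54 in Dynasore and 9.15 and 9.27 in DMSO. Dynasore+BMP-2 lay below DMSO and Dynasore above it, with no overlap among these 3 groups. The log2 change was -0.45 ± 0.14 in Dynasore+BMP-2 against DMSO (1.37-fold lower, adjusted p = 0.025) and 0.34 ± 0.14 in Dynasore against DMSO (adjusted p = 0.083). The first call was lost without Dynasore+BMP-2 replicate 2 (-0.36, adjusted p = 0.054), without either Dynasore array (-0.45, 0.064), without DMSO replicate 1 (-0.51, 0.083) and without DMSO replicate 2 (-0.39, 0.18), with arrays scaled to equal medians (-0.39, 0.053), and with all 8 arrays, unweighted (-0.45, 0.90) or with array weights (-0.45, 0.11). The second passed without Dynasore+BMP-2 replicate 1 (0.34, adjusted p = 0.024) or replicate 2 (0.34, 0.023), where only the estimate of the spread changed.

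Egr1, which links growth factor and stress signals to GC-rich promoters and is a classic target of SRF and the ERK pathway, had 10.30 and 10.20 in Dynasore+BMP-2, 10.83 and 11.48 in DMSO+BMP-2, 10.43 and 10.62 in Dynasore and 12.18 and 12.11 in DMSO. The DMSO arrays were the highest, the 4 dynasore arrays the lowest and the DMSO+BMP-2 arrays in between, with no overlap between these 3 levels. The log2 change against DMSO was -1.89 ± 0.11 in Dynasore+BMP-2, a 3.72-fold fall (adjusted p = 6.9e-07), and -1.62 ± 0.11 in Dynasore, a 3.08-fold fall (adjusted p = 2.2e-06). Of all tested probes, 2.24% changed by as much as Egr1 or more, in either direction, in Dynasore+BMP-2 and 3.28% in Dynasore.

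Egr2, or Krox20, the EGR factor known for Schwann cell myelination, had 6.41 and 6.55 in Dynasore+BMP-2, 6.99 and 8.30 in DMSO+BMP-2, 6.78 and 6.63 in Dynasore and 7.36 and 7.72 in DMSO. The 4 arrays with dynasore lay below both DMSO arrays, and the DMSO+BMP-2 arrays lay on either side of them. The log2 change against DMSO was -1.06 ± 0.18 in Dynasore+BMP-2, 2.08-fold lower (adjusted p = 0.00086), and -0.83 ± 0.18 in Dynasore, 1.78-fold lower (adjusted p = 0.004). Without DMSO replicate 2 the change in Dynasore was -0.65 (adjusted p = 0.066) and the call was lost. Ier2, an immediate early nuclear protein, had 4.79 to 5.84 over the 8 arrays, none above background, and no fold is given for it.

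The log2 changes above do not depend on which DMSO+BMP-2 arrays are used, but their errors depend on whether both enter. When both DMSO+BMP-2 arrays entered, so that the gap between them counted in the common estimate of the spread, Egr1 was the only member called in Dynasore+BMP-2 against DMSO (adjusted p = 0.015; 3.55% of all probes) and in Dynasore against DMSO (adjusted p = 0.025; 3.21% of all probes). With DMSO+BMP-2 replicate 1 in place of replicate 2, the same 6 and 5 members were called as in the first fit (38.5% and 37.4% of all probes).

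**Figure D2:**
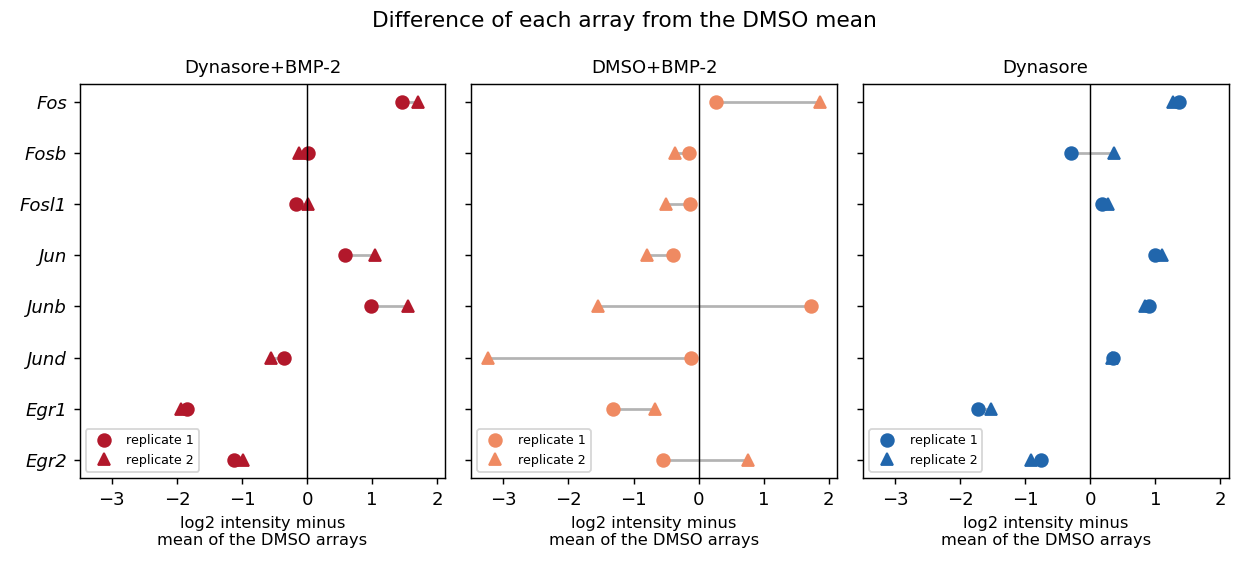
Log2 intensity of each array minus the mean of the 2 DMSO arrays for the 8 tested members, by group (circles replicate 1, triangles replicate 2, grey lines join duplicates). Duplicates with dynasore lie close together and on the same side of DMSO for Fos, Jun, Junb, Egr1 and Egr2, whereas DMSO+BMP-2 duplicates lie on opposite sides for Junb and Egr2.

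BMP-2 with vehicle gave no member a call on all 8 arrays. In DMSO+BMP-2 against DMSO, 0 of 8 members passed in limma with Benjamini-Hochberg adjustment, as did 0.205% of all tested probes, and Egr1 alone of the members had an unadjusted p under 0.05 (log2 change -0.99 ± 0.25, adjusted p = 0.35). Both DMSO+BMP-2 arrays had less Egr1 than either DMSO array, and such a fall without overlap was found in 15.1% of all tested probes. With replicate 2 as the only DMSO+BMP-2 array the change of Egr1 was -0.67 ± 0.14 (adjusted p = 0.0015), and with replicate 1 it was -1.31 ± 0.14 (adjusted p = 0.00034). Such 7-array fits assume that the lone array varies like the other groups.

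For the other members the outcome depended on the array kept. With replicate 2, 7 of 8 members passed, where 69.4% of all tested probes did. In that fit Fos (1.87) and Egr2 (0.76) were higher and Fosl1 (-0.50), Jun (-0.79), Junb (-1.54), Jund and Egr1 were lower on the log2 scale, and of all probes 41.3% were called higher and 28.1% lower. Jund was not above background on replicate 2, and its level there was at least 6.04-fold lower than in DMSO when set at the lowest signal above background. With replicate 1, 2 of 8 members passed, Junb (1.73 ± 0.23, adjusted p = 0.0063) and Egr1, where 4.6% of all probes did. Junb was thus 3.31-fold higher on replicate 1 and 2.92-fold lower on replicate 2 (adjusted p = 0.00055) than in DMSO, and its 8-array change was 0.09 ± 0.93.

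**Figure D3:**
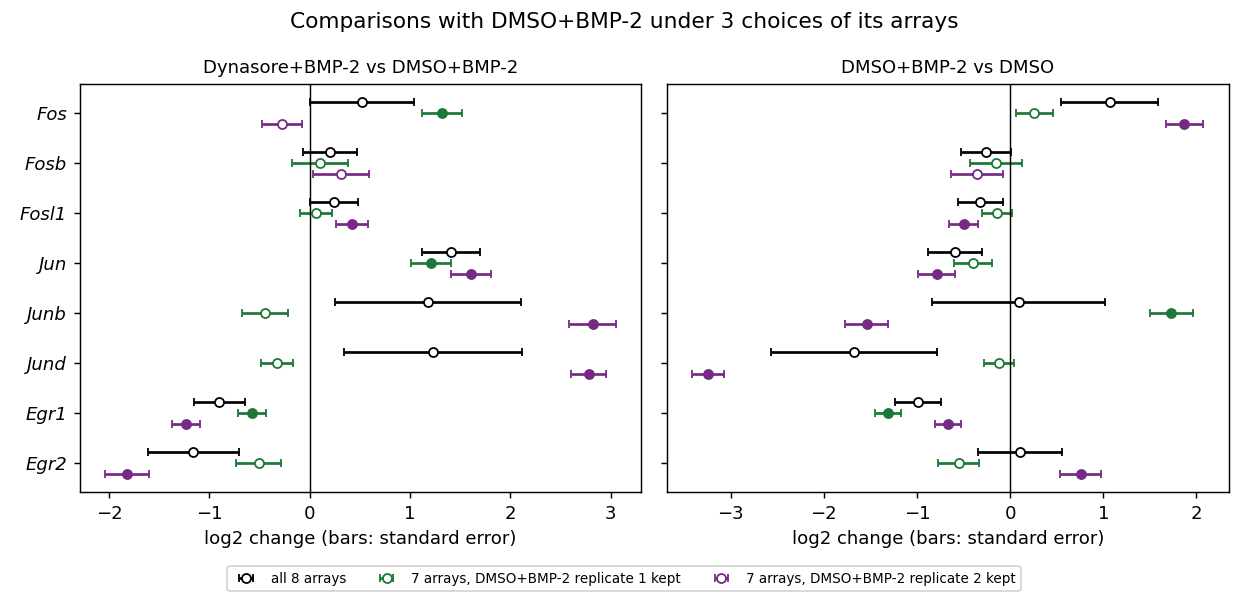
Log2 change ± SE of the 8 tested members in Dynasore+BMP-2 against DMSO+BMP-2 (left) and DMSO+BMP-2 against DMSO (right), from all 8 arrays and from 7 arrays with either DMSO+BMP-2 array alone. Filled points passed an adjusted p of 0.05. Fosb, Fosl1, Jun and Egr1 keep their sign under all 3 choices in both comparisons, whereas Junb changes sign in both.

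Under BMP-2, dynasore was set against vehicle in Dynasore+BMP-2 and DMSO+BMP-2. On all 8 arrays 0 of 8 members passed, against 3.58% of all probes, and 3 members had an unadjusted p under 0.05. These were Jun (log2 change 1.41 ± 0.29, adjusted p = 0.052), Egr1 (-0.90 ± 0.25, adjusted p = 0.11) and Egr2 (-1.16 ± 0.45, adjusted p = 0.21). The arrays of both groups did not overlap for these genes. Jun passed with either DMSO+BMP-2 array alone, at 1.61 with replicate 2 (adjusted p = 5e-05) and 1.21 with replicate 1 (adjusted p = 0.0014), and so did Egr1, at -1.23 (adjusted p = 2.2e-05) and -0.58 (adjusted p = 0.011). Egr2 passed with replicate 2 (-1.82, adjusted p = 3.5e-05) and not with replicate 1 (-0.51, adjusted p = 0.11). Fos passed with replicate 1 (1.32, adjusted p = 0.00075), whereas with replicate 2 its change was -0.28 (adjusted p = 0.23). In all, 6 members passed with replicate 2, where 67.2% of probes did, and 3 with replicate 1, where 29% did.

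BMP-2 in the presence of dynasore was tested in Dynasore+BMP-2 against Dynasore, with 7 arrays. Jund was the only member called, 1.73-fold lower in Dynasore+BMP-2 (log2 change -0.79 ± 0.14, adjusted p = 0.025), in a comparison where 0.879% of all probes were called, 0.225% lower and 0.654% higher. The Dynasore+BMP-2 arrays (8.85 and 8.66) lay below the Dynasore arrays (9.56 and 9.54), as was found for 17.8% of all tested probes. This call was lost without Dynasore replicate 1 (-0.78, adjusted p = 0.35), Dynasore replicate 2 (-0.80, 0.34), DMSO replicate 1 (-0.79, 0.092) or DMSO replicate 2 (-0.79, 0.093), and also with all 8 arrays. The log2 changes of the other 7 members lay between -0.31 (Fosl1) and 0.40 (Junb), with adjusted p-values from 0.42 to 0.92. Without Dynasore+BMP-2 replicate 1, the remaining array of that group against the Dynasore arrays gave Junb a change of 0.69 (adjusted p = 0.0011), in a fit where 16.1% of all probes were called.

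The interaction asks whether BMP-2 acted differently in dynasore than in vehicle, and it is the first BMP-2 effect minus the second. It was called for 0 of 8 members and 0 of all tested probes on 8 arrays (limma, Benjamini-Hochberg). At an unadjusted p under 0.05 there were 229 probes and no member, and Egr1 came nearest (0.72 ± 0.35, adjusted p = 0.91). With DMSO+BMP-2 replicate 2 alone, 4 members passed, where 56.2% of probes did. These were Junb (1.95) and Jund (2.44), with a positive interaction, and Fos (-1.61) and Egr2 (-0.99), with a negative one, against 23.3% and 32.9% of all probes. With replicate 1 alone Egr1 passed (1.04, adjusted p = 0.027), where 1.09% of probes did. A moderated F-test across the 4 groups called Egr1 alone on 8 arrays (adjusted p = 0.029), where 4.63% of all probes passed. It called 7 members with replicate 2 and 6 with replicate 1, where 77.6% and 40.1% did.

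Among other bZIP proteins, not all of which pair with Fos or Jun, 13 of 16 listed genes had a probe and 9 were tested. Of these, 4 were higher and 0 lower in Dynasore+BMP-2 than in DMSO, with a median log2 change of 0.39, and the counts were the same in Dynasore, with a median of 0.34. Of all tested probes, 38.4% were called in either direction in Dynasore+BMP-2 and 37.4% in Dynasore against DMSO, and the counts of this and the other gene lists stand beside those shares. Atf3, a stress-induced factor that dimerizes with Jun, had 9.46 and 9.75 in Dynasore+BMP-2, 5.64 and 6.10 in DMSO+BMP-2, 9.95 and 9.70 in Dynasore and 6.21 and 6.17 in DMSO. Every array with dynasore was far above every array without it. The log2 change against DMSO was 3.42 ± 0.16 in Dynasore+BMP-2 (adjusted p = 1.2e-07) and 3.64 ± 0.16 in Dynasore (adjusted p = 8.3e-08), and it passed on all 8 arrays too (adjusted p = 0.0042 and 0.0048). Against DMSO+BMP-2, where Atf3 was not above background, Dynasore+BMP-2 was at least 9.68-fold higher (adjusted p = 0.0038 on 8 arrays). Maff, a small Maf protein, was not above background in DMSO and was at least 3.62-fold higher in Dynasore+BMP-2 and at least 4.6-fold higher in Dynasore, each bound being taken against the lowest signal above background. Mafg and Atf2 were the other bZIP genes that rose, by 1.03 and 0.59 in Dynasore+BMP-2 and by 1.18 and 0.54 in Dynasore on the log2 scale. On 8 arrays only Atf3 and Maff of these 9 genes passed, and the adjusted p-values against DMSO were 0.16 and 0.12 for Mafg and 0.57 and 0.62 for Atf2.

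**Figure D4:**
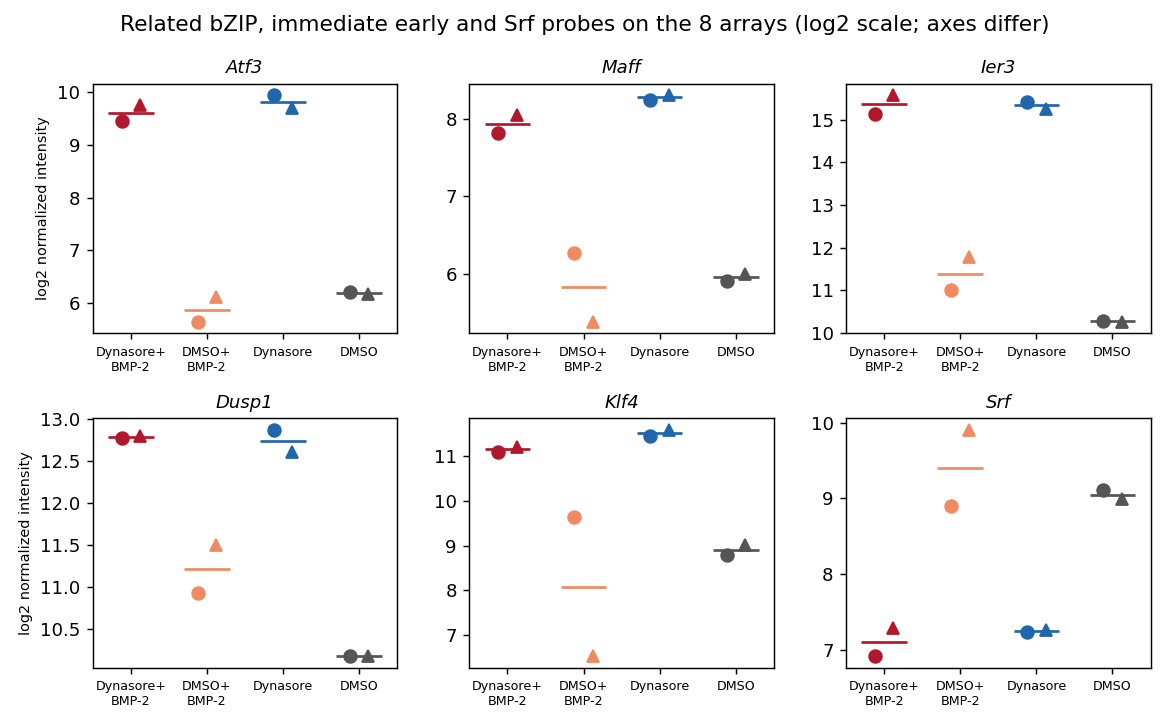
Log2 normalized intensity of Atf3, Maff, Ier3, Dusp1, Klf4 and Srf on the 8 arrays (circles replicate 1, triangles replicate 2, bars group means). The 4 arrays with dynasore lie above all others for the first 5 genes and below all others for Srf; Atf3 on the DMSO+BMP-2 arrays and Maff on the DMSO arrays and on DMSO+BMP-2 replicate 2 are at background.

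Of the factors that act upstream of the immediate early promoters, Srf itself was the only tested member of its list of 6 genes, of which 2 had a probe. Srf had 6.91 and 7.28 in Dynasore+BMP-2, 8.90 and 9.91 in DMSO+BMP-2, 7.23 and 7.26 in Dynasore and 9.11 and 8.99 in DMSO. It was lower on all 4 arrays with dynasore than on all 4 without. The log2 change was -1.96 ± 0.16 in Dynasore+BMP-2 (adjusted p = 6.8e-06) and -1.81 ± 0.16 in Dynasore (adjusted p = 1.4e-05) against DMSO, and -2.32 ± 0.39 in Dynasore+BMP-2 against DMSO+BMP-2 (8 arrays, adjusted p = 0.031). On 8 arrays the first 2 had adjusted p-values of 0.051 and 0.066. Of 16 kinases and Ras genes of the MAPK pathways, which phosphorylate these factors, 8 were tested, and 1 was higher and 2 were lower in Dynasore+BMP-2 than in DMSO (median 0.12), a share close to that of all probes. Rps6ka3, or Rsk2, rose by 0.89 and Mapk14, the p38α kinase, fell by 0.54 there, while in Dynasore Mapk8, the JNK1 gene, fell by 0.71 (adjusted p = 0.0089). These kinase values are of mRNA and say nothing of kinase activity, and none of the 3 passed on 8 arrays.

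In a list of other immediate early genes, chosen with earlier results of these data known, more were called higher than lower with dynasore. The list had 38 names, among them Cyr61 and Axud1, which are older names of the listed Ccn1 and Csrnp1. In all, 29 genes were tested, and 16 were higher and 3 lower in Dynasore+BMP-2 against DMSO (median 0.74). In Dynasore against DMSO 15 were higher and 7 lower (median 0.37). Over all tested probes the shares were those given for the members and the median was 0. On all 8 arrays these counts were 4 higher and 0 lower in Dynasore+BMP-2 and 4 higher and 1 lower in Dynasore. At equal BMP-2, in Dynasore+BMP-2 against DMSO+BMP-2 on 8 arrays, 5 were higher and 0 lower (median 0.71). In that comparison 3.58% of all tested probes were called. Ier3, a stress-induced regulator of survival and ERK signaling, had 15.14 and 15.58 in Dynasore+BMP-2, 11.00 and 11.78 in DMSO+BMP-2, 15.42 and 15.26 in Dynasore and 10.27 and 10.26 in DMSO. Its log2 change was 5.10 ± 0.14 in Dynasore+BMP-2 and 5.07 ± 0.14 in Dynasore against DMSO (adjusted p = 7e-09 and 6.7e-09). Dusp1, the phosphatase that switches off p38 and JNK, rose by 2.60 and 2.55 on the same scale (adjusted p = 5.3e-08 and 6.9e-08), and both genes also passed on 8 arrays. Klf4 rose by 2.24 and 2.61, and it did not pass on 8 arrays (adjusted p = 0.26 and 0.2), where its DMSO+BMP-2 duplicates had 9.64 and 6.53. Egr1 and Egr2 thus fell in comparisons in which several listed genes of the same induction class rose and fewer fell.

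The EGR relatives and co-factors showed no call in common with Egr1 and Egr2. Of 6 genes, 4 were tested, and Sp1, a zinc finger factor whose GC-rich sites overlap those of Egr1, was the only one called, higher in Dynasore+BMP-2 (1.09 ± 0.17, adjusted p = 0.00049) and in Dynasore (0.90 ± 0.17, adjusted p = 0.0017) than in DMSO. Neither call of Sp1 held on 8 arrays (adjusted p = 0.099 and 0.16). Nab2, which is induced by Egr1 and represses it, had 7.40 and 7.31 in Dynasore+BMP-2, 7.01 and 6.69 in DMSO+BMP-2, 7.19 and 7.42 in Dynasore and 7.66 and 7.69 in DMSO. It did not pass in any of these comparisons on the arrays of the first fit.

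Known targets of the factors moved in both directions. Of 19 known AP-1 targets, 14 were tested, and 6 were higher and 3 lower in Dynasore+BMP-2 against DMSO (median 0.60), while 7 were higher and 4 lower in Dynasore (median 0.18). On 8 arrays 1 was higher (Vegfa) and 1 lower (Plau) in each. Vegfa, the angiogenic growth factor, rose by 3.08 ± 0.12 in Dynasore+BMP-2 and 3.25 ± 0.12 in Dynasore (adjusted p = 2.9e-08 and 2.2e-08), whereas Plau, the urokinase protease, fell by 2.65 in Dynasore+BMP-2 and fell by 2.38 in Dynasore (adjusted p = 0.00027 and 0.00051). Plau was above background on 1 of the 2 arrays of each of these groups, so that the size of its fall rests in part on values at background. Mmp14, a membrane-bound collagenase listed as a target of both factors, fell by 1.17 and fell by 1.20 against DMSO, calls that were lost on 8 arrays (adjusted p = 0.061 for both). It was also lower in Dynasore+BMP-2 than in DMSO+BMP-2 (-1.93 ± 0.25, adjusted p = 0.016 on 8 arrays). Of 14 known EGR targets, 9 were tested, and 1 was higher and 3 were lower in Dynasore+BMP-2 (median -0.32), while 1 was higher and 2 were lower in Dynasore (median -0.20). The lower ones in Dynasore+BMP-2 were Mmp14, Pdgfa (-0.65), which encodes a platelet-derived growth factor chain, and Tnfrsf12a (-0.62), the TWEAK receptor. The higher one was Cdkn1a, the p21 cell cycle inhibitor, at 0.56 in Dynasore+BMP-2 and 0.69 in Dynasore. These calls were lost on 8 arrays too, with adjusted p-values of 0.16 for Pdgfa, 0.91 for Tnfrsf12a and 0.65 and 0.55 for Cdkn1a.

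The probes whose pattern over the 8 arrays was most like that of Fos, Jun and Egr1 were found by the root mean square difference of log2 values relative to the DMSO mean, among 9593 candidates. For Fos these were Osbpl6 (0.128), N4bp2 (0.152) and Catsper2 (0.152), where the median over all candidates was 1.27. For Jun they were Avil (0.136), Abcb6 (0.191) and Tfrc (0.193), against a median of 0.908. For Egr1 they were Rab7b (0.122), Tgfbr2 (0.181) and Ppargc1b (0.185), against a median of 1.44. Tgfbr2, the type II receptor of TGF-beta, had mean log2 changes from DMSO of -1.99 in Dynasore+BMP-2 and -1.43 in Dynasore, and those of Tfrc, the transferrin receptor, were 1.00 and 1.17. These are likenesses of pattern on 8 arrays that include the discordant DMSO+BMP-2 duplicates.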

How the data were processed

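RNA of C2C12 cells was hybridized to Illumina MouseRef-8 BeadChips. The authors normalized the scanned signals by the rank invariant method of BeadStudio 3.0 and deposited linear intensities. Values lay below 0 on 6 of 8 arrays, and whether background was subtracted is not given in the sources used here. A second deposited table, with 16 columns of signals and detection p-values under sample numbers, was not used because the numbers could not be matched to samples. Intensities were corrected by normexp (offset 16), quantile normalized over the 8 arrays and log2 transformed in R 4.3.3 with limma 3.58.1. This normalization removes differences in overall signal between arrays. The background limit of an array was set 1.645 SD over the modal intensity of its dim probes, and 10244 probes past it on at least 2 arrays were tested (6304 on all 8). Of 18138 probes, 1252 had no symbol. The 4 groups were fitted together with lmFit and eBayes (trend, robust), leaving 4 residual degrees of freedom on 8 arrays and 3 on 7, with Benjamini-Hochberg adjustment over the tested probes. All members were named. Of each of 7 gene lists at most 4 genes per comparison were named, those past the threshold with non-overlapping arrays and the largest change, and Nab2 was added after its values were seen. The number of arrays limits the precision. The procedure was tested on simulated data. The members and lists were chosen with earlier results of these data known.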

Additional observations from a re-analysis of the deposited data

How the results depend on the processing

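The count of members called depended most on the DMSO+BMP-2 arrays. With all 8 arrays it was 1 in place of 6 in Dynasore+BMP-2 against DMSO, 1 in place of 5 in Dynasore against DMSO and 0 in place of 1 in Dynasore+BMP-2 against Dynasore. With DMSO+BMP-2 replicate 2 or replicate 1 alone it was 7 or 2 in place of 0 in DMSO+BMP-2 against DMSO, 6 or 3 in place of 0 in Dynasore+BMP-2 against DMSO+BMP-2, 4 or 1 in place of 0 in the interaction, and 7 or 6 in place of 1 in the F-test. Junb reversed, to -1.54, with replicate 2 in DMSO+BMP-2 against DMSO, and was 1.73 with replicate 1. The methods' one-way test called more members with replicate 2 than with replicate 1, adjusted or not, and the same held over all tested probes. In Dynasore+BMP-2 against DMSO+BMP-2, 1 member passed without further normalization (Fos, 1.06) and 1 with probes above background on all 8 arrays or with eBayes without trend and robust (Jun). The single call in Dynasore+BMP-2 against Dynasore (Jund) became 0 with array weights, equal medians, eBayes without trend and robust, and probes above background on all 8 arrays, where Jund was not tested. Leaving out single arrays gave 5 to 6, 4 to 6 and 0 to 2 calls in Dynasore+BMP-2 against DMSO, Dynasore against DMSO and Dynasore+BMP-2 against Dynasore, and 0 to 7, 0 to 6 and 0 to 4 in DMSO+BMP-2 against DMSO, Dynasore+BMP-2 against DMSO+BMP-2 and the interaction. The cause was not tested beyond these fits.

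The sources do not say that arrays of the same number belong together, and deviations of same-numbered arrays correlated between -0.279 and 0.502, so the number was not used as a pairing. With the replicate block 6 members were called in Dynasore+BMP-2, 0 in DMSO+BMP-2 and 5 in Dynasore, each against DMSO. Of all tested probes, 36.2%, 0.0586% and 35.1% were called in these comparisons. In the other 3 comparisons 0 members were called. Jund in Dynasore+BMP-2 against Dynasore had an adjusted p of 0.058.

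Over all probes, 3937 calls in Dynasore+BMP-2 against DMSO became 364 with 8 arrays and 2623 to 4815 without single arrays, and 3834 in Dynasore became 329 and 2506 to 5034. Without further normalization the median change of all probes was -0.16 and -0.10 in these comparisons, and 35.4% and 35.8% of the called probes were higher, against 50.7% and 47.9%; relative to those medians the called members kept their direction. In DMSO+BMP-2 against DMSO 21 calls became 7111 or 471 with 1 array kept, 34 without further normalization, 6 with the block, 3 with weights and 0 with equal medians. In Dynasore+BMP-2 against DMSO+BMP-2 367 became 6882 or 2969, 669, 206, 68 and 61 under the same settings.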

Other observations

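BMP-2 in the presence of dynasore was accompanied by a rise of 4 of the 29 tested immediate early genes outside the member set (Dynasore+BMP-2 against Dynasore, 7 arrays), where 0.879% of all tested probes were called in either direction, and the median of the list was 0.02. Id1, an inhibitor of bHLH factors and a classic direct BMP target, had log2 intensities of 9.82 and 9.69 in Dynasore+BMP-2 and 7.44 and 7.32 in Dynasore (log2 change 2.37 ± 0.14, adjusted p = 1.3e-05). The stress genes Gadd45b (1.71, adjusted p = 0.00011) and Gadd45g (1.32, adjusted p = 1e-04) and the phosphatase gene Dusp2 (1.16, adjusted p = 0.012) were also higher. Gadd45g had 12.09 and 11.97 in Dynasore+BMP-2, 10.71 and 10.71 in Dynasore and 11.83 and 11.94 in DMSO. Its level with both compounds was thus near that in DMSO. In DMSO, Id1 had 8.18 and 8.11, Gadd45b 7.72 and 7.85 and Dusp2 6.44 and 6.19, all below Dynasore+BMP-2. On all 8 arrays none of these 4 passed, with adjusted p-values of 0.32 to 1.

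Gadd45a was the only listed gene called in DMSO+BMP-2 against DMSO on all 8 arrays. It had 9.68 and 8.66 in DMSO+BMP-2 and 11.96 and 12.21 in DMSO (log2 change -2.92 ± 0.33, adjusted p = 0.044), where 0.205% of all probes were called. In Dynasore+BMP-2 it had 12.54 and 12.43, which was 3.31 above DMSO+BMP-2 (adjusted p = 0.006).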
